A study of Mus musculus with 7 samples.

Results

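T-cell transcripts were examined in RNA of follicular dendritic cells (FDCs), stromal cells that display antigen to B cells inside lymph node follicles. The members were the rows of the expression table whose gene symbol was one of 10 T-cell receptor complex and T-cell lineage genes: Cd3d, Cd3e, Cd3g, Trbc2, Lck, Cd4, Cd8a, Tcf7, Il7r and Ccr7. All 10 were found, each as 1 row of the 21176 genes in the table. Per the labels, the mice were males of 8 to 12 weeks that had not been immunized, and FDCs were isolated from their popliteal lymph nodes by cell sorting. The 4 wild-type (WT) samples and 3 samples from mice lacking the neurotrophin receptor gene Ngfr (Ngfr KO) were independent, and each pooled nodes of several animals. The labels name no strain, Cre driver or allele for the Ngfr KO and give neither the sorting gate nor any step that removes T cells. cDNA was amplified from the sorted cells with a kit for very small inputs, and each sample gave 1 library.

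T cells recognise antigen through a receptor whose variable chains have almost no signalling tail. Signals pass instead through the CD3 chains and the zeta chain, whose tyrosine motifs are phosphorylated by the kinase Lck, which rides on the co-receptors CD4 and CD8. T cells enter lymph nodes and stay in the T zone through CCR7, whose ligands CCL19 and CCL21 are made by stromal cells, and they live on IL-7, also a stromal product. A subset, the follicular helper cells, moves into the follicle and meets B cells there beside FDCs. FDCs are stromal cells and have no known T-cell receptor of their own. Several members are not limited to T cells: in mice Cd4 and Cd8a are also made by subsets of dendritic cells, Ccr7 by B cells and migrating dendritic cells, and Il7r and Tcf7 by innate lymphoid cells.

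The deposited values are TMM-normalised signals, that is, read counts multiplied by 1 factor per sample. A signal of 1 stood for 230 to 295 reads, and 3 reads, taken as the detection floor, for 0.0102 to 0.0130. Totals ranged from 17244925 to 18873542 reads for WT and from 20741770 to 21538400 for Ngfr KO, without overlap. After thinning all libraries to the smallest total, limma again called 0 members. WT replicate 3 stood apart from the others: it had the fewest genes above 0, 17771 against 18624 to 20047, and by far the most Igkc and Jchain reads, 41352 and 7319. Results for the tested members are therefore also given without it. The targeted gene Ngfr had WT signals of 0.377 to 1.30 and Ngfr KO signals of 0.184 to 0.353, with 46 to 104 reads left in the Ngfr KO libraries. FDC markers were present in every library: the summed signal of 12 of them ranged from 1811 to 5086 for WT and from 7840 to 10365 for Ngfr KO. Of these 12 genes, limma called 11 higher in Ngfr KO and 0 lower, and of 9 endothelial genes it called 9 lower. Over all genes tested it called 18.3% higher and 15.8% lower. The summed signal of the endothelial genes ranged from 93.9 to 206 for WT and from 35.3 to 58.4 for Ngfr KO. The mitochondrial share of reads also differed, at 5.55% to 7.42% for WT against 3.14% to 4.97% for Ngfr KO, and its part in the gene differences was not tested. In such bulk samples, fewer T cells and less T-cell RNA per cell cannot be told apart.

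The T-cell receptor beta chain has 2 constant-region genes, and their sequences are shown because they decide how well Trbc2 reads can be told from Trbc1 reads. Both lie on the plus strand of chromosome 6 (GRCm38, GENCODE M21), Trbc1 from 41538218 to 41539881 and Trbc2 from 41546730 to 41548352. Their first coding exons, 375 bases each, differed at 1 position, and the whole coding parts, 518 bases each, at 23. The 60 bases around the single difference in the first coding exon (chr6:41538447-41538506 and chr6:41546959-41547018) and the whole of the third coding exon, 107 bases with 15 differences (chr6:41539229-41539335 and chr6:41547772-41547878), follow 5′ to 3′, with differences between the genes in capitals.
Trbc1, first coding exon: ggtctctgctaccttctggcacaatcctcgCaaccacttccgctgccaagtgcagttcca
Trbc2, first coding exon: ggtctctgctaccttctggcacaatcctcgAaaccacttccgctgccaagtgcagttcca
Trbc1, the third coding exon: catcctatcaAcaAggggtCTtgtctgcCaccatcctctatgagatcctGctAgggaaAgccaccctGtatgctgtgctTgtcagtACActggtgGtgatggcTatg
Trbc2, the third coding exon: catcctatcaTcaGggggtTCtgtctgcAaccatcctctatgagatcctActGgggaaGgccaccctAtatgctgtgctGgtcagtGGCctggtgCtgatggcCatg
Reads from most of the first coding exon therefore fit both genes. How the authors' counting treated such reads is not given in the sources used here, and the split between Trbc1 and Trbc2 is uncertain.

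Cd3g and Cd3d are neighbours on chromosome 9 that are transcribed away from each other, with annotated starts 1355 bases apart, and Cd3e lies beyond Cd3d. Their promoter windows, 250 bases before to 50 after the start (RefSeq, GRCm38.p6), are printed because the 3 chains of 1 complex sit in 1 short stretch of the genome. The windows are chr9:44980382-44980681 on the minus strand for Cd3g, chr9:44981536-44981835 on the plus strand for Cd3d and chr9:45009562-45009861 on the minus strand for Cd3e. Capitals mark matches, on either strand, to letters that stand for 4 kinds of transcription factor active in T cells. The letters were AGATAA for GATA factors and CAGGAAG for ETS factors. They were TGTGGT for RUNX factors and CTTTGA for TCF factors.
Cd3g: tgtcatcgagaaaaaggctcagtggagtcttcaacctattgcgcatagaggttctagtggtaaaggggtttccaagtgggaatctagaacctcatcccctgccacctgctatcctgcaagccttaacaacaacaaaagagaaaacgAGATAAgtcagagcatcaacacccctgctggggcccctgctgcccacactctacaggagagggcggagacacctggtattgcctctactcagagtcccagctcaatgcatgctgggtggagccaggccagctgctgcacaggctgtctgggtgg
Cd3d: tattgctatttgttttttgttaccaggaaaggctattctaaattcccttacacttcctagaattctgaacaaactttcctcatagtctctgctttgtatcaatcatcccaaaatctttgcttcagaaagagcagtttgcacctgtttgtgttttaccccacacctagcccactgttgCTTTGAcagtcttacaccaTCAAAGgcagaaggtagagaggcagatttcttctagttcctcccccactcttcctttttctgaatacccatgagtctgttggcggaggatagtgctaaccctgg
Cd3e: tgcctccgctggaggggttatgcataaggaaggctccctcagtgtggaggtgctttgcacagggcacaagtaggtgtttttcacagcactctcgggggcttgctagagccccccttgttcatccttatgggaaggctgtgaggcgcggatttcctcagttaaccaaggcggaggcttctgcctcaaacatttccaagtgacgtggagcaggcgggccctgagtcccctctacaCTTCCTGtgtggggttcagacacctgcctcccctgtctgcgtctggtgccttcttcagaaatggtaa
The Cd3g window held 1 match, to the GATA letters, the Cd3d window 2, both to the TCF letters, and the Cd3e window 1, to the ETS letters. The 4 motifs do not overlap in these windows. Windows were found for 7 of the 10 members, 9 windows in all. The ETS letters were in 4 of those 9 windows and in 13.3% of all 32851 promoter windows, the RUNX letters in 2 (16.8% of all), the GATA letters in 1 (11.2%) and the TCF letters in 1 (16.0%). The 4 windows with the ETS letters included both windows of Lck, so they stand for fewer than 4 genes. A match describes the letters only.

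All 10 members were detected, with no signal above 3.43, but Cd4 and Il7r had no read in WT replicate 3. None of the 10 was called between genotypes by limma in its main setting, edgeR or DESeq2. Cd3d and Ccr7 were called under some alternatives, given with their values. The summed signal of the 10 genes was 14.02, 14.7, 4.97 and 10.7 in WT replicates 1 to 4 and 11.9, 11.9 and 6.78 in Ngfr KO replicates 1 to 3. WT replicate 3 and Ngfr KO replicate 3 were the low libraries of their groups, and the groups overlapped. In reads, the 10 genes together had 1143 to 3940 per library. Of the 10 members, 6 reached a signal of 1 in at least 3 samples and were tested with limma: Cd3d, Cd3g, Trbc2, Lck, Tcf7 and Ccr7. limma called 0 of these 6 at an adjusted p under 0.05, where it called 34.2% of all 8326 genes tested, and 0 of the 6 had an unadjusted p under 0.05. On the recovered reads, edgeR called 0 of 10 members, where it called 15.2% of all genes tested, 8.67% higher and 6.55% lower. DESeq2 called 0 of 10, where it called 21.9% of all (11.5% higher, 10.5% lower). In each case 0 members had an unadjusted p under 0.05. The groups overlapped in all 10 members, where they did not overlap in 25.6% of all genes in the table and 40.9% of genes tested by limma. The mean log2 value was lower in Ngfr KO for 3 of the 6 tested members (48.3% of all genes tested). The median log2 change of the 6 tested members was -0.07, beside 0.02 over all genes tested.

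**Figure D1:**
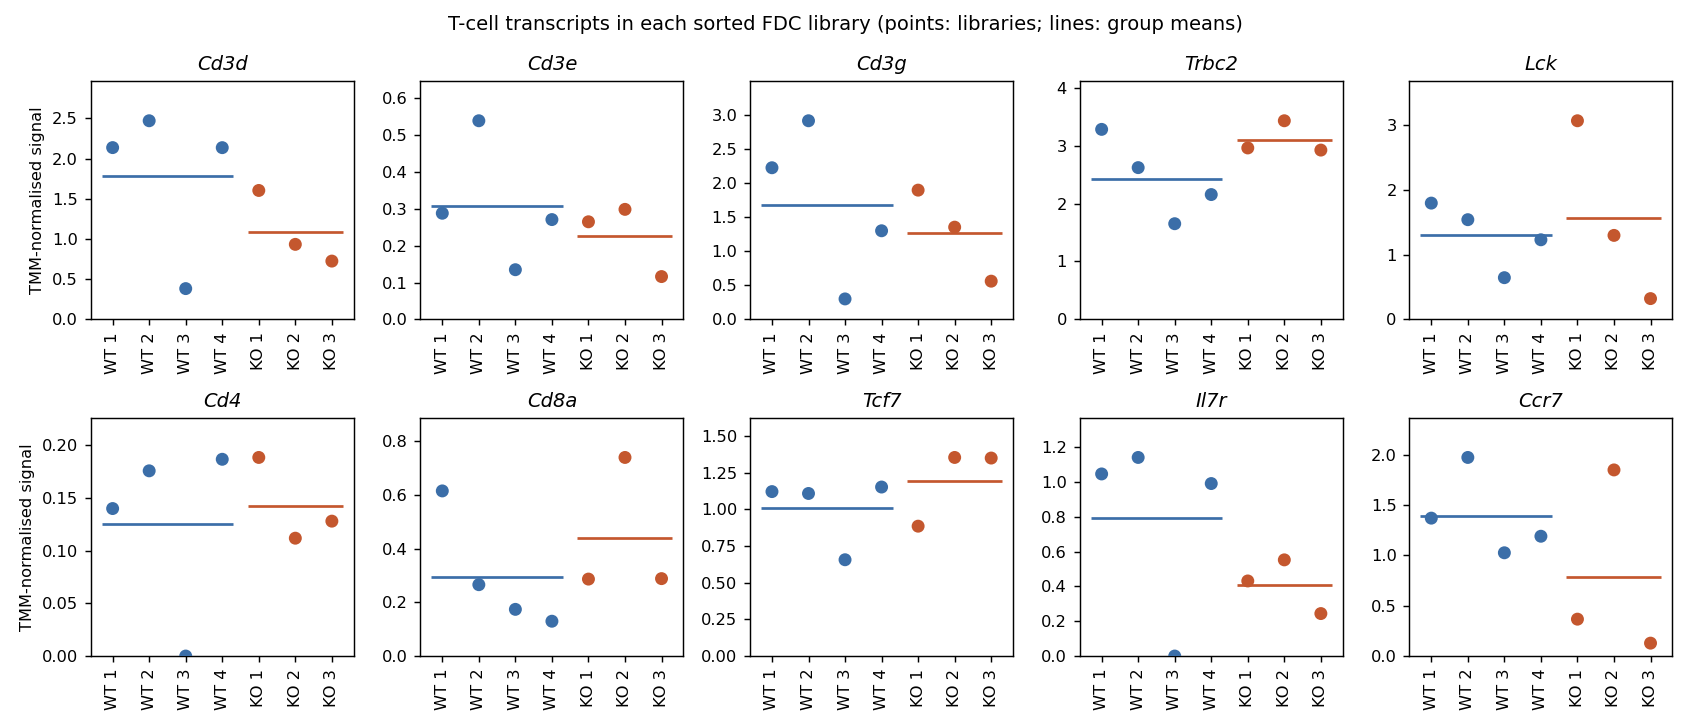
TMM-normalised signal (vertical axis, linear from 0, scaled per gene) of the 10 members in the 4 WT libraries (blue) and the 3 Ngfr KO libraries (orange). Points are libraries and lines are group means. WT replicate 3 is the lowest WT library in 9 of the 10 panels, and the groups overlap in all of them.

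Cd3d, Cd3g and Cd3e encode the delta, gamma and epsilon chains of CD3, which carry the receptor to the cell surface and signal for it. Cd3d (ENSMUSG00000032094, chromosome 9, 44981786 to 44987339, plus strand) had signals of 2.14, 2.47, 0.382 and 2.14 in WT replicates 1 to 4 and 1.603, 0.933 and 0.725 in Ngfr KO replicates 1 to 3. The other 3 WT libraries were above every Ngfr KO library, and WT replicate 3 was below all of them. The WT mean was 1.78 ± 0.95 (SD, n = 4) and the Ngfr KO mean 1.09 ± 0.46 (SD, n = 3). On the log2(signal + 1) scale the difference was -0.35, with a 95% interval of -0.97 to 0.26 (limma adjusted p = 0.350). Without WT replicate 3 it was -0.66, with an SE of 0.17, and Cd3d was called (limma adjusted p = 0.0172), so that whether Cd3d is called depends on 1 library. With all libraries edgeR gave -0.64 (SE 0.53, adjusted p = 0.458).

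Cd3g (ENSMUSG00000002033, chromosome 9, 44969572 to 44980431, minus strand) had signals of 2.23, 2.92, 0.300 and 1.30 in WT and 1.90, 1.35 and 0.561 in Ngfr KO. As for Cd3d, WT replicate 2 was the highest and WT replicate 3 the lowest of the 7 libraries. The log2 change was -0.17 (95% interval -0.88 to 0.53, limma adjusted p = 0.698). Its sign depended on single libraries: it was 0.05 without WT replicate 2 and 0.07 without Ngfr KO replicate 3. Without WT replicate 3 it was -0.48 (limma adjusted p = 0.156). Cd3e (ENSMUSG00000032093, chromosome 9, 44998740 to 45009627, minus strand) had lower signals, 0.288, 0.539, 0.135 and 0.271 in WT and 0.265, 0.298 and 0.116 in Ngfr KO. It did not reach the level for the limma test. The exact two-sided permutation test on its values gave p = 0.514, where 35 splits of 7 samples allow no p below 0.0571. The antisense gene Gm48719 shares 135 exonic bases with Cd3e, and whether the counting used strand is not given in the sources used here.

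Trbc2 (ENSMUSG00000076498) encodes a constant region of the T-cell receptor beta chain. Its signals were 3.28, 2.62, 1.65 and 2.15 in WT and 2.96, 3.43 and 2.92 in Ngfr KO, or 380 to 1011 reads. It had the highest signal of the 10 members in 5 of the 7 libraries; in WT replicate 2 Cd3g was higher, and in Ngfr KO replicate 1 Lck. Each Ngfr KO library was above 3 of the 4 WT libraries, and WT replicate 1 was above 2 of the 3 Ngfr KO libraries. The log2 change was 0.28 (95% interval -0.10 to 0.66, limma adjusted p = 0.230), and edgeR gave 0.43 (SE 0.24, adjusted p = 0.263). Without WT replicate 3 the limma log2 change was 0.16 (adjusted p = 0.437). Trbc1, its near-identical neighbour, had 521, 458, 0 and 591 reads in WT and 700, 75 and 64 in Ngfr KO. In WT replicate 3 and in Ngfr KO replicates 2 and 3, Trbc1 was therefore far below Trbc2, while the 2 genes were closer to each other in the other 4 libraries. The summed signal of both genes was 5.31, 4.33, 1.65 and 4.41 in WT and 5.50, 3.68 and 3.18 in Ngfr KO, lowest in WT replicate 3. Trac, the constant region of the alpha chain, ranged from 1.17 to 1.59 in WT apart from replicate 3, which had 0.652, and from 0.749 to 1.23 in Ngfr KO (limma log2 change -0.07, adjusted p = 0.780).

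Lck (ENSMUSG00000000409, chromosome 4, 129548344 to 129573641, minus strand), the kinase that starts receptor signalling, had signals of 1.79, 1.54, 0.643 and 1.23 in WT and 3.07, 1.30 and 0.320 in Ngfr KO. The Ngfr KO group held both the highest and the lowest of the 7 libraries. The log2 change was 0.03 (95% interval -0.64 to 0.70, limma adjusted p = 0.942), and it was -0.37 without Ngfr KO replicate 1 and -0.12 without WT replicate 3.

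The co-receptors were the members with the fewest reads beside Cd3e. Cd4 (ENSMUSG00000023274, chromosome 6, 124864692 to 124888221, minus strand), which binds MHC class II, had signals of 0.140, 0.176, 0 and 0.187 in WT and 0.189, 0.112 and 0.128 in Ngfr KO. Its reads never exceeded 52 in a library, and WT replicate 3 had none, which allows a signal of up to 0.0130. A two-sided exact permutation test gave p = 0.914, and the edgeR log2 change of 0.25 had an SE of 1.09. Cd8a (ENSMUSG00000053977, chromosome 6, 71373427 to 71379173, plus strand), whose product binds MHC class I, had 0.615, 0.266, 0.174 and 0.130 in WT and 0.287, 0.739 and 0.288 in Ngfr KO. One library of each group, WT replicate 1 and Ngfr KO replicate 2, stood above the rest (exact two-sided permutation p = 0.343). Cd8b1, the partner chain of Cd8a, had 272, 240, 1 and 103 reads in WT and 292, 77 and 113 in Ngfr KO. Its order differed from that of Cd8a: Ngfr KO replicate 2, the highest library for Cd8a, was the lowest of its group for Cd8b1.

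Tcf7 (ENSMUSG00000000782, chromosome 11, 52252371 to 52283014, minus strand) encodes TCF-1, a transcription factor of naive and memory T cells and of lymphoid precursors. Its signals were 1.12, 1.11, 0.656 and 1.152 in WT and 0.885, 1.35 and 1.35 in Ngfr KO. Unlike the CD3 genes, it was among the highest values in Ngfr KO replicate 3. The log2 change was 0.13 (95% interval -0.21 to 0.47, limma adjusted p = 0.538), and 0.04 without WT replicate 3 (0.850).

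Il7r (ENSMUSG00000003882, chromosome 15, 9505788 to 9530176, minus strand) encodes the alpha chain of the IL-7 receptor. It had signals of 1.05, 1.14, 0 and 0.992 in WT and 0.432, 0.553 and 0.244 in Ngfr KO. The other 3 WT libraries lay above every Ngfr KO library, and WT replicate 3 had no read, which allows up to 0.0130. A two-sided exact permutation test gave p = 0.229, and edgeR gave a log2 change of -0.87 (SE 1.03, adjusted p = 0.611). Il2rg, the common gamma chain that pairs with it, was abundant, with a WT mean of 89.7 ± 17.2 (SD, n = 4) and a Ngfr KO mean of 102 ± 9 (SD, n = 3), and was not called (limma adjusted p = 0.494).

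Ccr7 (ENSMUSG00000037944, chromosome 11, 99144196 to 99155077, minus strand), the receptor that guides T cells and dendritic cells to the T zone, had the largest limma log2 change in size among the 6 tested members with all libraries. By edgeR, which tested all 10, that of Il7r was larger. Its signals were 1.37, 1.97, 1.03 and 1.19 in WT and 0.366, 1.85 and 0.128 in Ngfr KO. Ngfr KO replicates 1 and 3 were below every WT library, and Ngfr KO replicate 2 was above 3 of the 4. The WT mean was 1.39 ± 0.41 (SD, n = 4) and the Ngfr KO mean 0.781 ± 0.932 (SD, n = 3). The log2 change was -0.53, with a 95% interval of -1.11 to 0.05 (limma adjusted p = 0.139), and -0.60 without WT replicate 3 (0.135). With array weights, which weight libraries by their fit to the model, it was -0.87 and Ccr7 was called (limma adjusted p = 0.00183). Without Ngfr KO replicate 2 it was -0.93, with an SE of 0.19, and Ccr7 was called (limma adjusted p = 0.00821). The edgeR log2 change with all libraries was -0.71 (adjusted p = 0.534).

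**Figure D2:**
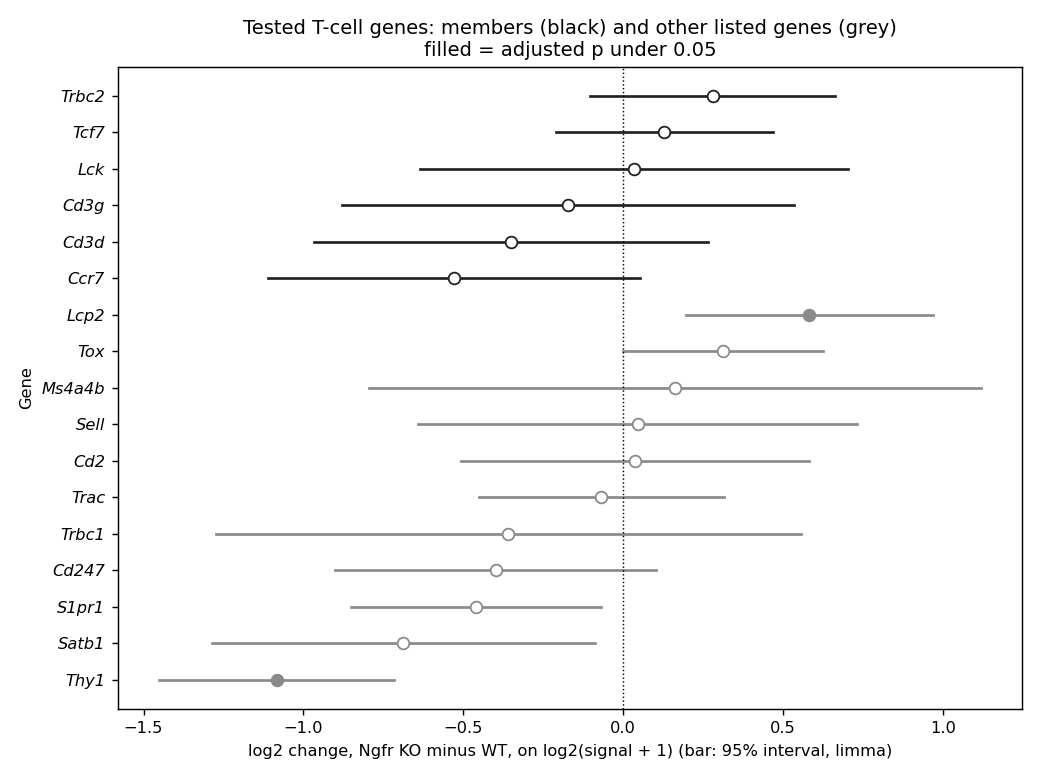
Log2 change of signal, Ngfr KO minus WT, on the log2(signal + 1) scale with its 95% limma interval, for the 6 tested members (black) and the 11 tested genes of the lists of other T-cell genes (grey). Filled points have a limma adjusted p under 0.05. The intervals of all 6 members include 0, and only Lcp2 (0.58) and Thy1 (-1.08) are filled.

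Levels of different genes were compared per kilobase of annotated exons. By the mean signal per kilobase over 7 samples the order was Trbc2 (3.93), Cd3d (0.817), Ccr7 (0.571), Lck (0.482), Cd3g (0.461), Tcf7 (0.415), Il7r (0.135), Cd8a (0.0981), Cd3e (0.0669) and Cd4 (0.0330). In WT, Ccr7, Lck, Cd3g and Tcf7 had 0.702 ± 0.209, 0.444 ± 0.169, 0.516 ± 0.348 and 0.384 ± 0.090 per kilobase (SD, n = 4). Of these, the direct neighbours Ccr7 and Lck, Lck and Cd3g, and Cd3g and Tcf7 overlapped, whereas every WT value of Ccr7 lay above every WT value of Tcf7. The order was not the same in Ngfr KO, where Lck (0.533) and Tcf7 (0.456) were above Ccr7 (0.395), and Cd8a (0.120) was above Il7r (0.0878). The value of Trbc2 is not fully comparable, because only its constant region of 0.692 kb is annotated and because of the reads it may share with Trbc1. Cd3d stood at the 83.4th percentile of 21118 genes by this measure, and Cd3e, which belongs to the same complex, at the 40.6th. This gap depends on the lengths, which join the exons of all annotated transcripts: 1.815 kb for Cd3d and 4.08 kb for Cd3e. Without division by length their WT means were 1.78 and 0.308. On the same per-kilobase scale in WT, the FDC gene Cr2 had 6.19 ± 2.62, the B-cell gene Cd79a 3.57 ± 0.92 and Cd3d 0.981 ± 0.521 (SD, n = 4). Cr2 does not stand for all listed FDC genes, which differed widely on this scale. In the WT libraries Cxcl13 had 747 to 2526 per kilobase and Tnfsf11 0.177 to 0.795.

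WT replicate 3 was the lowest WT library for 9 of the 10 members, all except Cd8a. Among all genes of the table it was the lowest WT library for 30.4%, and among genes tested for 24.5%. Relative to the median of the other 3 WT libraries, its signal was 0.135 for Cd3g, 0.179 for Cd3d, 0.418 for Lck and 0.468 for Cd3e. It was 0.586 for Tcf7, 0.630 for Trbc2, 0.654 for Cd8a and 0.749 for Ccr7, and Cd4 and Il7r had no read. Whether these ratios differ by more than the spread between libraries was not tested. Ngfr KO replicate 3 was the lowest of its group for 7 members, all except Cd4, Cd8a and Tcf7, and for 31.9% of all genes. Of the 42 other listed T-cell genes in the table, WT replicate 3 was the lowest WT library for 28 and Ngfr KO replicate 3 the lowest Ngfr KO library for 27. In WT replicate 3, 11 of those 42 genes had no read, among them Trbc1, Lat, Icos and Bcl11b. Over the whole table, 17771 of 21176 genes were above 0 in that library. Of the 11, Tbx21 never exceeded 12 reads in any library, and Ubash3a never exceeded 37. The part of the lower number of genes above 0 in these low values was not tested.

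**Figure D3:**
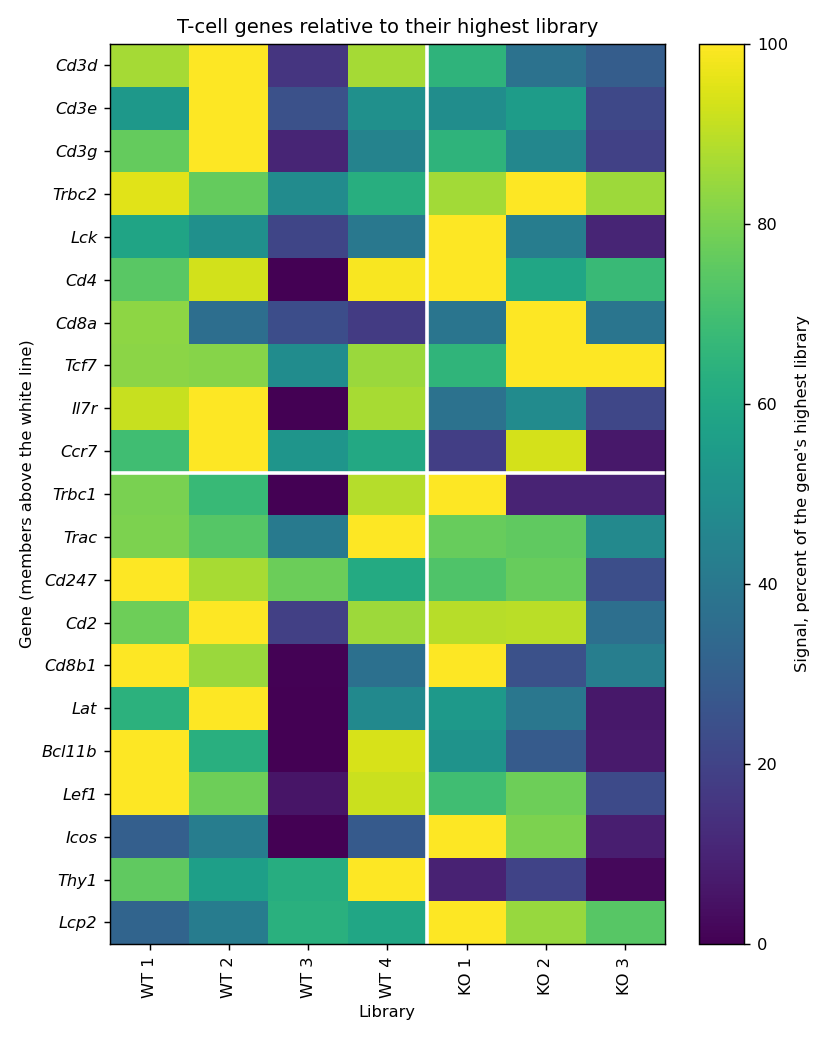
Signal of the 10 members (above the white line) and of 11 other T-cell genes chosen for display after their values were seen, in each of the 7 libraries, as percent of the gene's highest library (colour scale 0 to 100). WT replicate 3 is dark for most genes: Cd3d is at 15.5%, Cd3g at 10.3% and Cd4, Il7r, Trbc1, Lat, Bcl11b and Icos at 0. Thy1 is dark in all 3 Ngfr KO libraries, between 2.01% and 20.1%.

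The other genes of the T-cell programme were read from 2 lists of 43 genes in all, of which 42 were in the table and 11 were tested by limma. Of these 11, 1 was called higher in Ngfr KO, 1 lower and 9 not, and their median log2 change was -0.07, beside 0.02 over all genes. limma called 18.3% of all genes tested higher and 15.8% lower. Thy1, a surface glycoprotein of mouse T cells that stromal and endothelial cells can also carry, fell. Its signals were 1.65, 1.24, 1.36 and 2.19 in WT, against 0.210, 0.441 and 0.0440 for Ngfr KO. The groups did not overlap, and limma gave a log2 change of -1.08 with an SE of 0.17 (adjusted p = 0.00101; edgeR -2.69, adjusted p = 0.0185). All 9 listed endothelial genes also fell; their part in the Thy1 difference was not tested. In WT replicate 3, where the CD3 genes were lowest, Thy1 was within the range of the other WT libraries.

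Lcp2, the adaptor SLP-76 of T cells and other blood cells, rose, with a WT mean of 1.76 ± 0.53 (SD, n = 4), a Ngfr KO mean of 3.09 ± 0.47 (SD, n = 3) and groups that did not overlap. Its limma log2 change of 0.58 had an SE of 0.18 (adjusted p = 0.0253). It was not called by edgeR (adjusted p = 0.0507), without a filter (limma adjusted p = 0.0760), or without WT replicate 1 (0.0698), WT replicate 2 (0.0679), Ngfr KO replicate 1 (0.102) or Ngfr KO replicate 2 (0.0676). Lcp2 ran against the CD3 genes in WT, being highest in replicate 3 at 2.27. On the recovered reads edgeR tested 41 of the listed genes and called 3, 1 higher and 2 lower, where it called 15.2% of all genes tested. Thy1 and Txk, a Tec family kinase of T cells, fell. The chemokine receptor gene Cxcr6 rose, with 45, 52, 0 and 6 reads in WT and 222, 604 and 69 in Ngfr KO (log2 change 3.51, SE 1.06, adjusted p = 0.0490), but DESeq2 did not call it (adjusted p = 0.0676). Txk had 283, 263, 127 and 134 reads in WT and 68, 50 and 35 in Ngfr KO (edgeR log2 change -2.01, SE 0.45, adjusted p = 0.0163). Neither Txk nor Cxcr6 reached the level for the limma test. DESeq2 called 6 of 41, where it called 21.9% of all genes: Lcp2 higher and Thy1, Txk, Zap70, Fyn and Satb1 lower. Zap70, the kinase that binds the phosphorylated zeta chain, had a DESeq2 log2 change of -2.78 (adjusted p = 0.0365) on 1 to 30 reads per library. Fyn, a kinase related to Lck, had -1.41 (DESeq2 adjusted p = 0.0432), and Satb1, a chromatin organiser of T cells, -1.36 (DESeq2 adjusted p = 0.0311). edgeR did not call these 3 genes (adjusted p = 0.112, 0.105 and 0.0884). Without a filter limma called Zap70 (limma adjusted p = 0.0248) and Txk (0.0476) lower. Satb1 was not called by limma in its main setting. It was called lower without WT replicate 3 (limma adjusted p = 0.00570) and with array weights (0.00106).

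Cd247, the zeta chain that signals beside CD3, had signals of 3.36, 2.92, 2.61 and 2.05 in WT and 2.44, 2.57 and 0.805 in Ngfr KO. It was not low in WT replicate 3, unlike Cd3d and Cd3g, and it is also made by natural killer cells. Cd2, an adhesion molecule of T cells, followed the CD3 pattern in WT, with WT replicate 3 at 18.9% of the highest library. Icos, a co-stimulator of follicular helper cells, had 115, 166, 0 and 110 reads in WT and 406, 348 and 31 in Ngfr KO. Ngfr KO replicates 1 and 2 were above every WT library for Icos and replicate 3 was below 3 of the 4.

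The ligands of the members' receptors were measured in the same libraries. Ccl19, a CCR7 ligand, rose, with a WT mean of 33.5 ± 13.9 (SD, n = 4) and a Ngfr KO mean of 77.5 ± 19.6 (SD, n = 3). Its limma log2 change of 1.24 had an SE of 0.29 (adjusted p = 0.00777). Ccl21a, the other CCR7 ligand, varied from library to library, at 26.7 ± 31.5 in WT and 12.5 ± 8.4 in Ngfr KO, and was not called (limma adjusted p = 0.430). Its reads are uncertain because the Ccl21 genes are near-identical copies. Il7 had 5.55 ± 0.93 in WT and 8.51 ± 2.24 in Ngfr KO, and its limma log2 change of 0.52 had an SE of 0.19 (adjusted p = 0.0491; edgeR adjusted p = 0.0622). Tslp, a cytokine gene whose product binds a receptor that contains the Il7r chain, had signals of 0.876, 1.12, 0.217 and 0.267 in WT and 0.163, 0.173 and 0.0240 in Ngfr KO. Its groups did not overlap, but it did not reach the level for the limma test. DESeq2 called it lower (log2 change -2.26, adjusted p = 0.0171), and edgeR did not (adjusted p = 0.0845). In all, limma called 2 of 4 tested ligand genes higher and 0 lower, where it called 18.3% of all genes tested higher. Il16, the remaining tested gene of this list, was not called.

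Markers of other cell types were summed in each library to describe what accompanied the T-cell transcripts. The 13 B-cell genes other than Igkc summed to 24.6, 36.3, 23.0 and 30.8 in WT and 33.6, 56.9 and 17.7 in Ngfr KO. With Igkc the sum of WT replicate 3 was 203, against 34.2 to 51.7 in the other WT libraries, and its plasma-cell sum was 46.0 against 6.99 to 10.96. Single genes carried both sums: Igkc, an immunoglobulin light chain gene, had 180 in WT replicate 3, and Jchain, which joins secreted antibodies, 31.8. Ighm, an immunoglobulin heavy chain gene, had its lowest signal of the 7 libraries there, at 2.17. The other plasma-cell genes were mixed. Mzb1 had its highest signal of the 7 libraries there, at 3.31, and Derl3 had 73 reads against 0 in the other WT libraries. Xbp1 had its highest WT signal there, at 9.56, but was higher in every Ngfr KO library, at 13.6 to 16.2. Sdc1 was neither highest nor lowest there. Tnfrsf17 and Prdm1 had no read there, but Tnfrsf17 also had none in Ngfr KO replicates 2 and 3. Prdm1 also had none in WT replicate 4 and Ngfr KO replicate 2. The 7 genes of cytotoxic and natural killer cells summed to 5.94, 5.47, 0.269 and 0.347 in WT and 2.68, 2.17 and 13.8 in Ngfr KO. In Ngfr KO replicate 3 that sum was the highest of all libraries although Cd3d, Cd3e, Cd3g and Lck were the lowest of the Ngfr KO group there. Nkg7, a granule protein gene of cytotoxic cells, had 920 reads and Xcl1, a chemokine gene of natural killer and CD8 T cells, 507 reads in that library. The largest part of the sum was the chemokine gene Ccl5, with 1798 reads. Eomes and Klrk1 were also highest there, on 76 and 36 reads. The list did not rise as a whole: Prf1 had 0 reads there, and Klrd1 (0.400) was below WT replicate 1 (0.448). The 8 pan-leukocyte genes summed to 58.1 to 63.8 in WT apart from replicate 3, which had 36.9, and to 43.5 to 62.5 in Ngfr KO. Of their 7 tested genes 3 were called higher in Ngfr KO, Coro1a, Laptm5 and Cd53, and 0 lower, where 18.3% of all genes tested were called higher. The part of other cell types in the member values was not tested.

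**Figure D4:**
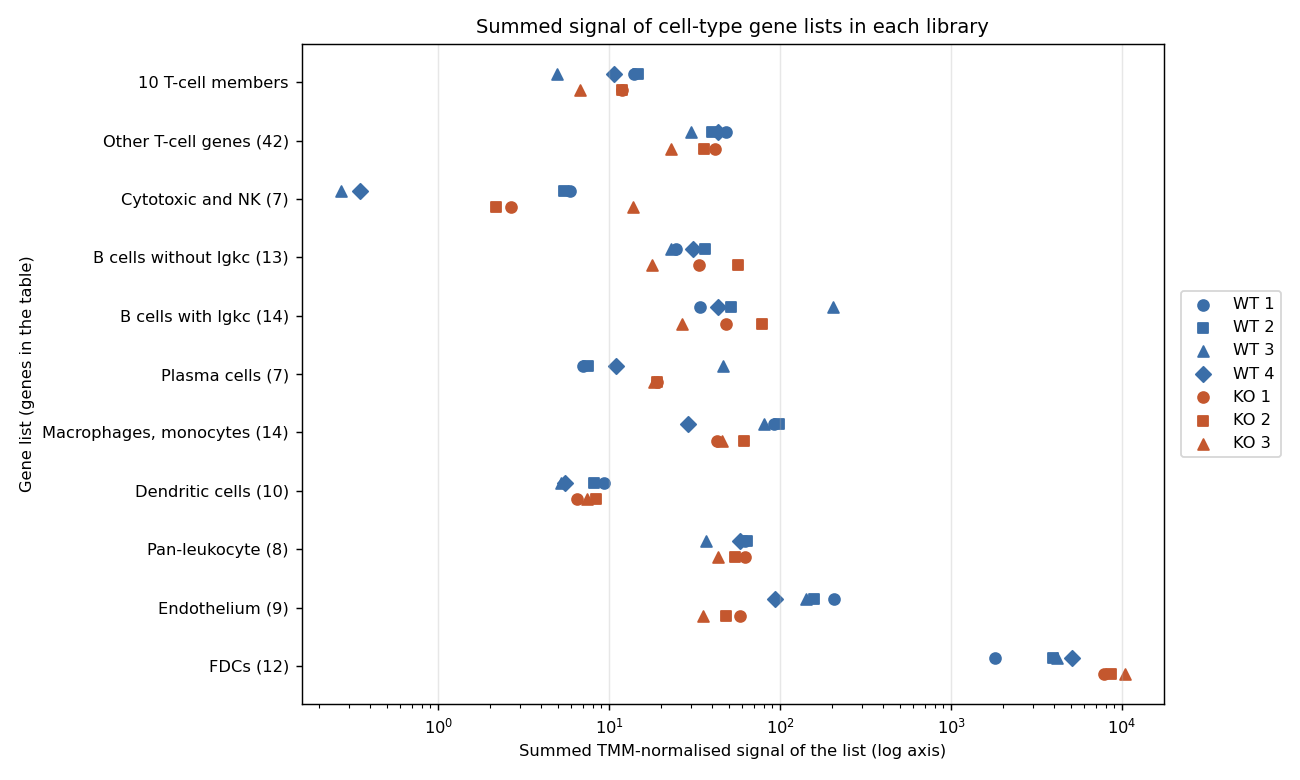
Summed TMM-normalised signal (log axis) of 11 gene lists in each of the 7 libraries, WT in blue and Ngfr KO in orange. WT replicate 3 (blue triangle) is the lowest library for the 10 T-cell members, at 4.97, and the highest for the B-cell list with Igkc, at 203. The groups are separate for the FDC and endothelial lists and overlap for both T-cell lists.

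The genes outside all lists whose log2(signal + 1) most resembled the members were found by Pearson's r over the 7 samples with the mean z-score of the 6 tested members. Of 8249 genes compared, the 8 with the highest r were Zfp260 (0.987), Usp4 (0.957), Fam114a2 (0.957), Dnm2 (0.949), Traf5 (0.947), Mms19 (0.944), Tspan32 (0.935) and Stard7 (0.929). Each of the 8 had its lowest signal in WT replicate 3. The selection favours this, because the mean z-score was itself lowest there, at -1.25. Tspan32 had signals of 1.39, 1.48, 0.269 and 0.934 in WT and 1.59, 1.13 and 0.545 in Ngfr KO. Traf5 had 1.46, 1.40, 0.578 and 1.38 in WT and 1.47, 1.59 and 0.925 in Ngfr KO. None of the 8 was called between genotypes (limma adjusted p from 0.615 to 0.989). Since they were chosen for likeness to members that were not called, this is no separate result.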

How the data were processed

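RNA was measured in 7 libraries, 4 WT and 3 Ngfr KO, grouped by the sample titles. The authors deposited 1 table of TMM-normalised signal per gene (TMM, trimmed mean of M values, is a scaling by library size and composition). Per the submitters' processing notes bcl2fastq 2.20.0.422 and the build mm10 were used; the aligner, counter and annotation are not given in the sources used here. In every sample 100% of values were whole multiples of 1 step (tolerance 0.01 reads), so whole reads were recovered by dividing by it. Reads are not independent molecules, so floors cover counting error only. No gene length was divided out.

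The main test was limma 3.58.1 in R 4.3.3 (eBayes with trend) on log2(signal + 1), all 7 samples, no covariates, for genes with a signal of at least 1 in at least 3 samples, called at a Benjamini-Hochberg adjusted p under 0.05 over all tested genes. The pseudocount understates changes of low genes. Single values used exact two-sided permutation tests over samples with scipy 1.17.1. Alternatives included edgeR 4.0.16 (quasi-likelihood test, filterByExpr, TMM factors) and DESeq2 1.42.0 on the recovered reads; the fits were tested on simulated data. Coordinates and exon lengths came from GENCODE M21 (GRCm38). The members and gene lists were chosen with earlier results of these data known. Named genes were the members, called genes of the lists, genes against which a count of members is read and the 8 genes most alike in pattern; others were chosen after their values were seen. Per the design text the samples were independent pools, and p-values measure the spread between pools.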

Additional observations from a re-analysis of the deposited data

Results flagged for a closer look

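In the 4 WT libraries, the gap between the most extreme library and its nearest neighbour was compared with the whole range for 21 results, the 10 members among them. The gap exceeded Dixon's 95% critical value for 4 samples in 5, where chance gives 1.05, and in each of the 5 the extreme library was WT replicate 3. The results are not independent, since they come from the same libraries. Cd3d was low there, with a gap of 0.840 of the range. Il7r was low, with a gap of 0.869. Tcf7 was low, with a gap of 0.911. The summed signal of the B-cell list, which includes Igkc, was high, with a gap of 0.896. The summed signal of the plasma-cell list was high, with a gap of 0.898.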

How the results depend on the processing

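limma called 2844 genes in all, 535 with the stricter filter (a signal of at least 10 in at least 3 samples), 4881 with array weights and 1727 to 3051 when 1 replicate was left out, the lowest without Ngfr KO replicate 2. The count of members called was 0 in the main test, 1 with array weights, where Ccr7 fell by 0.87 on the log2 scale (limma adjusted p = 0.00183), and 0 to 1 when 1 replicate was left out: Cd3d without WT replicate 3 and Ccr7 without Ngfr KO replicate 2. No member passed the stricter filter. Of the other T-cell genes 2 were called, but 0 of the 1 left by the stricter filter and 3 without a filter, all lower. The count was 4 with array weights, 6 with DESeq2 and 1 to 3 when 1 replicate was left out. Thy1 was called in each of these fits except the stricter filter, which it did not pass. Signs changed for Lck with a pseudocount of 0.1 (-0.11) and when 1 replicate was left out (-0.37 to 0.44), for Cd3g when 1 replicate was left out (-0.48 to 0.075), and for Tcf7 with array weights, where its log2 change was -0.079. None of these was called. The cause of these shifts was not tested.

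Samples with the same replicate number did not deviate together in every pair (r = 0.30, -0.06 and -0.01 across genes), so the numbers were not taken as pairs. With the replicate block 2717 genes, 1 member (Ccr7, log2 change -0.57, limma adjusted p = 0.0400) and 2 other T-cell genes were called. Cd4 rested on the fewest reads of the members, 0 to 52 per library.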
